A study of Bos taurus with 2 samples.

Results

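The genes examined here were 40 genes of the cell cycle, 27 of which act in mitosis and 13 in DNA replication, out of 26714 genes and transcripts represented on a bovine array. They were chosen by symbol, and a gene was measured through the probes whose accession belongs to that symbol. Of the 40 genes, 34 had a matched probe and 33 had a value. *MKI67*, *TOP2A*, *CENPA* and *CENPE* of the mitotic genes and *MCM2* and *GINS2* of the replication genes had no matched probe, so that the proliferation marker most often stained in tissue, *MKI67*, is not analysed here. *CDC6*, which loads the helicase at replication origins, had 1 probe and was not above background in either pool.

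The RNA came from the *longissimus thoracis* (LT) muscle of Japanese Black cattle fetuses at 8.5 months of gestation, taken at about day 260. During gestation the dams were fed at 60% of their requirement in the low nutrition (LN) group and at 120% in the high nutrition (HN) group, and RNA of 4 fetuses per group was pooled for 1 one-color array each. Per the study's methods, the LN pool was made of the lightest fetuses by body weight (BW) and the HN pool of the heaviest, and all dams were inseminated with male-sorted semen of a single sire. Diet and selection by BW therefore cannot be told apart. With 1 array per pool, the spread between fetuses is unknown, the groups could not be compared by a test, and every value is a description of these 2 pools.

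Dividing cells copy their DNA in S phase and separate the copies in M phase. Replication genes are transcribed from late G1 under the control of E2F factors, whereas most mitotic genes peak later, in G2 and M, under the MuvB, B-MYB and FOXM1 proteins. Muscle fibers themselves have left the cell cycle. In late fetal muscle, transcripts of these genes come mainly from cells that still divide, such as myoblasts, satellite cells, fibroblasts, endothelial cells and blood cells. In pooled tissue RNA, fewer dividing cells and less RNA per dividing cell cannot be told apart.

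Most mitotic genes were lower in the LN pool, whereas most replication genes differed little. Of the 23 mitotic genes with a value, 20 were lower, with a median log2 LN/HN of -0.35 and a range from -0.64 to 0.08. Of the 10 replication genes with a value, 6 were lower (9 with the 75th percentile subtracted and 8 with no normalization), with a median of -0.04 and a range from -0.51 to 0.09. Over all 19554 genes with a value, which include accessions matched to no symbol, the median was -0.0033, and 50.7% were lower. A gene is called lower or higher here when its difference on the log2 scale was more than 0.32. Called lower were 12 mitotic genes and 1 replication gene, 13 of 33 in all, against a background of 9.11% of all genes. None of the 33 genes was called higher, against 8.85% of all genes, and none differed by more than 2-fold, against 0.286% lower and 0.711% higher. Among the 13911 genes within the signal range of the mitotic genes, 10.7% were called lower and 9.58% higher. With each array scaled by its 75th percentile instead of the quantile method, 13.6% of all genes were called lower and 6.00% higher.

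**Figure D1:**
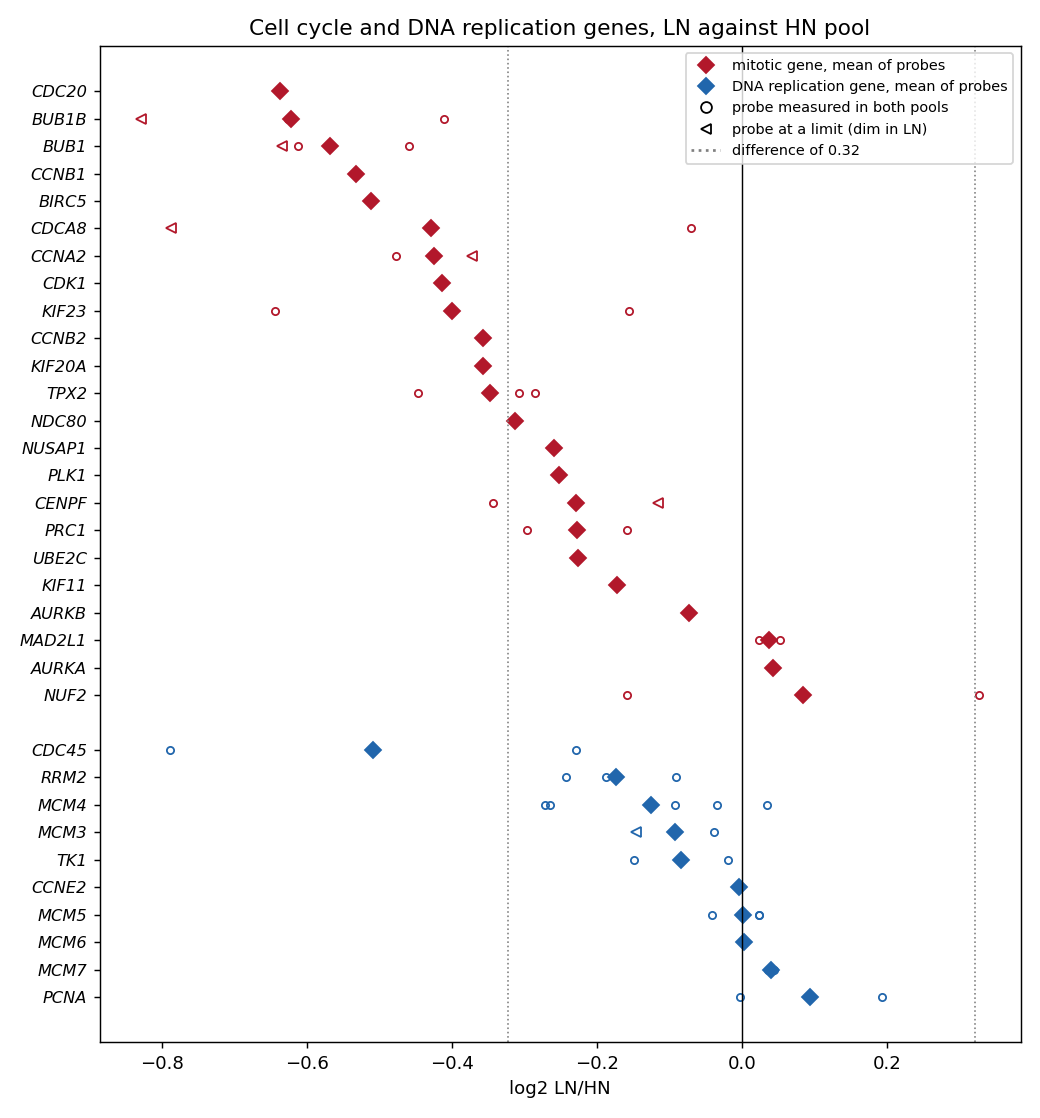
The log2 LN/HN of each of the 33 genes with a value, with mitotic genes in red and replication genes in blue, sorted within each group; diamonds are means over the probes of a gene, open circles are probes measured in both pools and triangles are probes at a limit because they were dim in the LN pool, and dotted lines mark differences of 0.32. The mitotic genes reach from -0.64 (*CDC20*) to 0.08 (*NUF2*), while all replication genes except *CDC45* lie between -0.17 and 0.09.

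The cyclins and the kinase that drive entry into mitosis were lower in the LN pool in 4 of 4 genes. *CCNB1*, the cyclin that activates *CDK1* at mitotic entry, had log2 signals of 5.17 (HN) and 4.64 (LN). Its log2 LN/HN was -0.53, or 1.45-fold lower, with an error of 0.23 as estimated by the scanner software. *CDK1*, the mitotic kinase itself, went from 5.04 (HN) to 4.63 (LN), a difference of -0.41 with a software error of 0.22. *CCNB2*, the second B-type cyclin, had 5.34 (HN) and 4.99 (LN), a difference of -0.36, from 1 probe. Its other probe was above background in the HN pool alone, at a signal under the limit of the LN pool, and gave no fold. *CCNA2*, the cyclin of S phase and G2, had a mean of -0.42 from its 2 probes at -0.48 and -0.37, the latter a limit because it was dim in the LN pool, so that the gene was at least 1.34-fold lower. The SD of the log2 LN/HN of a single spot was 0.085, taken from 42 probes printed more than once and above background. The differences of these 4 genes exceeded it as well as the software error of their probes measured in both pools. Repeated spots share the same pools and arrays, so this SD holds no spread between fetuses or hybridizations, and exceeding it shows no group difference. The mean signals of all 4 genes were below log2 5.74, where 16.6% of all genes were called lower and 17.7% higher.

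The spindle checkpoint delays anaphase until every chromosome is attached. *BUB1*, a checkpoint kinase, had 3 probes at -0.46, -0.61 and a limit of -0.63, with a mean log2 LN/HN of -0.57 ± 0.10 (SD between probes). *BUB1B*, which encodes the checkpoint protein BUBR1, had 3 detected probes, at -0.41, -0.63 and a limit of -0.83, with a mean of -0.62 ± 0.21. The probes measured in both pools, 2 per gene, were all lower, with means of -0.54 for *BUB1* and -0.52 for *BUB1B*. A probe dim in the LN pool alone gives a value only where it is lower, so that the limits carry no information on direction. *MAD2L1*, the checkpoint protein that binds CDC20, did not share this difference. Its probes gave 0.02 and 0.05, with log2 signals of 6.51 and 3.86 (HN) against 6.53 and 3.91 (LN).

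The anaphase-promoting complex ends mitosis by marking cyclin B for degradation. *CDC20*, its mitotic activator, had log2 signals of 5.84 (HN) and 5.21 (LN), a log2 LN/HN of -0.64, or 1.56-fold lower, with a software error of 0.21. This came from 1 probe, since the remaining 2 probes of *CDC20* were not above background in either pool. *UBE2C*, the ubiquitin-conjugating enzyme of the same complex, had a smaller difference, from 6.76 to 6.53 (-0.23, with a software error of 0.21).

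The chromosomal passenger complex corrects faulty attachments through the kinase AURKB. Its 3 measured members differed in size. *BIRC5* (survivin), which targets the complex to centromeres, had log2 signals of 4.41 (HN) and 3.90 (LN), a log2 LN/HN of -0.51, or 1.43-fold lower. *CDCA8* (borealin) had a mean of -0.43, but its 2 probes gave -0.07 where measured in both pools and a limit of -0.79 where dim in the LN pool. It was therefore not called lower when only probes measured in both pools were used. *AURKB* itself had 5.58 and 5.51 (-0.07), within its software error of 0.21.

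Of the other mitotic kinases, *PLK1*, which acts from mitotic entry to cytokinesis, had log2 signals of 9.32 (HN) and 9.06 (LN), a log2 LN/HN of -0.25, with a software error of 0.20. *AURKA*, the kinase of the spindle poles, had 5.37 and 5.42 (0.04). *AURKA*, *MAD2L1* and *NUF2* were the 3 mitotic genes that were not lower in the LN pool. Each changed its direction in at least 1 of the 12 other processing settings.

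At the kinetochore, *NDC80*, the microtubule-binding subunit of the NDC80 complex, had 5.49 (HN) and 5.18 (LN), a log2 LN/HN of -0.31. Its partner in the complex, *NUF2*, had a mean of 0.08 from probes that went opposite ways, at -0.16 and 0.33. *CENPF*, a kinetochore protein of G2 and M, had a mean of -0.23. Its probe measured in both pools gave -0.34, from 6.44 to 6.10, and the dim probe contributed a limit of -0.11.

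Of the 3 mitotic motor proteins, 2 were called lower. *KIF20A*, a kinesin of the central spindle, had 6.19 (HN) and 5.84 (LN), a log2 LN/HN of -0.36, with a software error of 0.21. *KIF23*, the kinesin of the midbody, had a mean of -0.40 ± 0.35 (SD between 2 probes), with its probes at -0.64 and -0.15, and was called lower in 5 of the 12 other settings. *KIF11*, which pushes the spindle poles apart, had 3.18 and 3.01 (-0.17, with a software error of 0.37), close to the background, and ranged from -0.58 to 0.11 over the other settings.

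Of the 3 microtubule-associated proteins of the spindle, 1 was called lower. *TPX2*, which activates AURKA on the spindle, had probes at -0.29, -0.31, -0.45 and a limit of -0.35, with a mean of -0.35 ± 0.07. *PRC1*, which bundles microtubules in the central spindle, had probes at -0.30 and -0.16, and the brighter one went from 8.59 to 8.30. *NUSAP1*, which binds microtubules near the chromosomes, went from 8.54 (HN) to 8.28 (LN), a log2 LN/HN of -0.26. Its second probe, above background in the HN pool alone, had a higher LN value and gave no fold, and with that probe as measured the mean of *NUSAP1* was 0.06.

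The replicative helicase, which unwinds DNA ahead of the fork, is formed by the proteins MCM2 to MCM7, and 5 of their genes were measured. They had log2 LN/HN values of -0.09 (*MCM3*), -0.13 (*MCM4*), 0.0023 (*MCM5*), 0.0031 (*MCM6*) and 0.04 (*MCM7*). *MCM4* was read by 5 probes, from -0.27 to 0.04, with an SD of 0.14. *MCM5* was read by 3 probes within -0.04 and 0.02, the brightest of which had 10.93 (HN) and 10.88 (LN). *MCM7* had 11.09 and 11.14 at its bright probe and 2.99 and 3.03 at its dim one. None of the 5 was called in any of the processing settings used, and *MCM4*, *MCM5*, *MCM6* and *MCM7* each took both directions among the settings.

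*PCNA*, the sliding clamp of the polymerases, had 3 probes at -0.0019, 0.09 and 0.19, a mean of 0.09 ± 0.10, and was the only one of the 33 genes that was higher in the LN pool in all 12 other settings. *RRM2*, the S phase subunit of ribonucleotide reductase, was lower in all 3 probes, at -0.24, -0.19 and -0.09, with a mean of -0.17 ± 0.08. *TK1*, the thymidine kinase of the salvage pathway, went from 11.47 to 11.33 at its bright probe and had a mean of -0.08. *CCNE2*, a cyclin of the G1/S transition, had 4.01 (HN) and 4.00 (LN), a difference of -0.0032.

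*CDC45*, which joins the MCM ring to form the active helicase, was the exception among the replication genes, with a mean log2 LN/HN of -0.51, 1.42-fold lower. Its 2 probes gave unlike sizes. The bright probe had 9.51 (HN) and 9.28 (LN), a difference of -0.23, with a software error of 0.20, and the dim one had 4.30 and 3.51 (-0.79, with a software error of 0.30). With the brightest probe alone, *CDC45* was not called lower.

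Probe by probe, 51 probes read the mitotic genes and 27 the replication genes. Of the mitotic probes, 31 were well above background in both pools, 10 in the HN pool alone, none in the LN pool alone and 10 in neither. The weakest signal marked above background was log2 2.27 (HN) against 2.82 (LN), and of the 10 probes above background in the HN pool alone, those of *KIF11* (2.46 and 2.50) and *NUSAP1* (2.46 and 2.85) had the higher signal in the LN pool. Of the replication probes, 23 were above background in both pools, 1 in the HN pool alone and 3 in neither. Every member with a value had at least 1 probe above background in both pools, so that no member entered through the HN pool alone. With those probes alone, the median was -0.34 for the mitotic genes and -0.02 for the replication genes, and 12 mitotic genes and 1 replication gene were called lower, against 7.99% of the 18800 genes measured in this way. The 12 mitotic genes were not the same as before, since *CDCA8* lost the call and *CENPF* gained it. Over the whole array, 1852 probes were above background in the HN pool alone and 284 in the LN pool alone, so that probes dim in the LN pool alone were not limited to these genes. Among the probes measured in both pools, 27 of 31 mitotic probes (87.1%) and 15 of 23 replication probes (65.2%) were lower in the LN pool, against 48.8% of all 30639 such probes. The difference exceeded the software error in 22 of the 31 mitotic probes (71.0%) and in 5 of the 23 replication probes (21.7%), against 29.9% of all probes. It exceeded 2 such errors in 7 of the 31 mitotic probes, in 1 of the 23 replication probes and in 2295 of all 30639 probes.

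**Figure D2:**
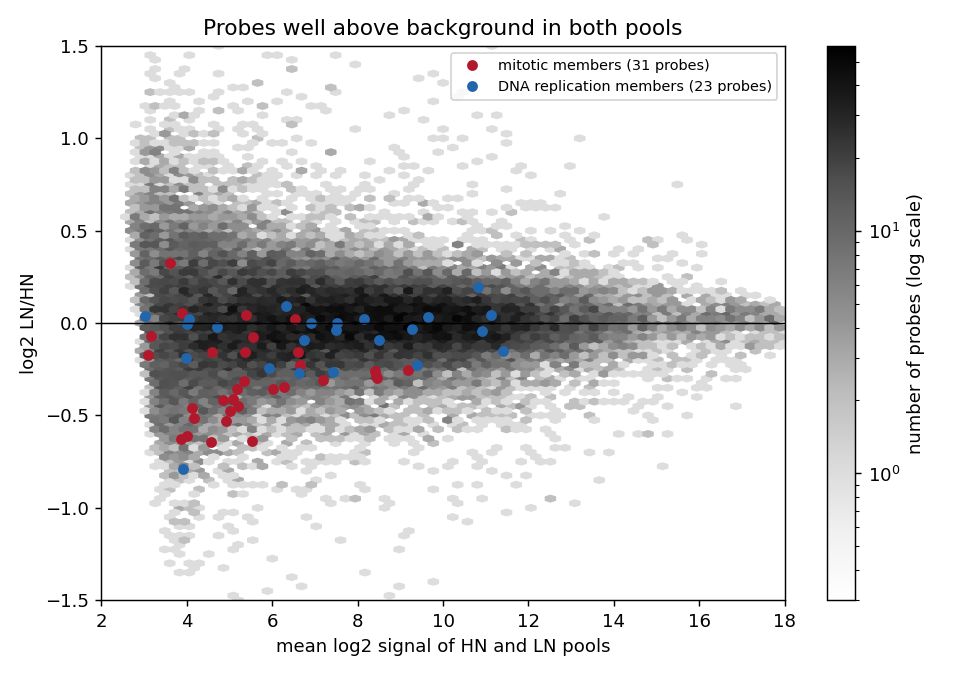
The log2 LN/HN of probes well above background in both pools against their mean log2 signal; grey cells count all probes on a log scale, probes beyond the axes are not drawn, red points are the 31 probes of mitotic genes and blue points the 23 probes of replication genes. The scatter of all probes widens at low signal, where most mitotic probes lie, and 27 of the 31 red points are below 0.

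Signal strength depends on the probe as well as on the transcript, and the array is less precise at weak signals. When the 19554 genes were divided into 3 equal parts by mean signal, 17 of the 23 mitotic genes were in the dimmest part, 4 in the middle and 2 in the brightest. In the dimmest part, 10 of the 17 were called lower and none higher, against 16.6% and 17.7% of all genes there, and their median was -0.40 against -0.02. The 4 mitotic genes of the middle part lay between -0.36 and -0.23, and the 2 of the brightest part, *NUSAP1* and *PLK1*, at -0.26 and -0.25. The 7 replication genes of the middle part had a median of 0.0023, and the 3 of the dimmest part, *MCM3*, *RRM2* and *CCNE2*, lay between -0.17 and -0.0032.

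Further genes of both processes, in lists written by hand from general knowledge, were described in the same way. The lists were chosen with earlier results of these data known, so they are not an independent check of the members. Of 59 further mitotic genes, 50 could be evaluated. The LN value was the lower one in 37 (74.0%), against 50.7% of all genes, and the median log2 LN/HN was -0.12. Among these, *TTK*, *CENPK* and *CEP55* had a value only through a probe dim in the LN pool, so that they could only be lower. Of the 50, 9 were called lower and 1 higher, against 9.11% and 8.85% of all genes. With only the probes measured in both pools, 33 of 47 were lower, and 8 were called lower and 1 higher, against 7.99% and 8.12% of all genes. The most different genes measured in both pools were *ASPM*, a spindle pole protein, with 4.18 (HN) and 3.49 (LN), a difference of -0.69, *CDKN3*, a phosphatase of CDK1 and CDK2 (-0.54), and *NCAPH*, a condensin subunit, whose 2 probes gave -0.59 and -0.46. The LN value was the higher one in 13 genes. Of these, only *ZWINT*, a kinetochore protein, was called, with 7.06 (HN) and 7.71 (LN) in its 1 probe, a difference of 0.65. *TUBB4B*, a tubulin with a log2 signal of 13.63 (HN) and 13.88 (LN), had a difference of 0.25 from 4 probes. The summed signal of the list was 28373 (HN) against 29564 (LN). The median of the further mitotic genes lay between -0.20 and -0.06 over the 12 other settings, with between 1 and 15 of them called lower and between 1 and 4 called higher, while the share of all genes called ranged from 1.98% to 15.9% lower and from 1.62% to 13.1% higher.

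Of 50 further replication genes, 40 could be evaluated, with a median of 0.05, and 25 were higher in the LN pool. None was called lower, against 9.11% of all genes, and 4 were called higher, a share near the 8.85% of all genes. Among these were *POLE2*, a subunit of DNA polymerase epsilon, with probes at 0.37 and 0.38, *WDHD1*, which links helicase and polymerase, with probes at 0.35 and 0.37, and *ORC2*, a subunit of the origin recognition complex. The 3 probes of *ORC2* ranged from 0.04 to 1.00 around a mean of 0.40. In comparison, 6 of the 10 replication members and 15 of the 40 further replication genes were lower. With the 75th percentile subtracted, 9 of the 10 members and 21 of the 40 further genes were lower and the further genes had a median of -0.01, so that their direction depended on the scaling. Over the 12 other settings between 0 and 2 of the further replication genes were called lower and between 0 and 7 higher.

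**Figure D3:**
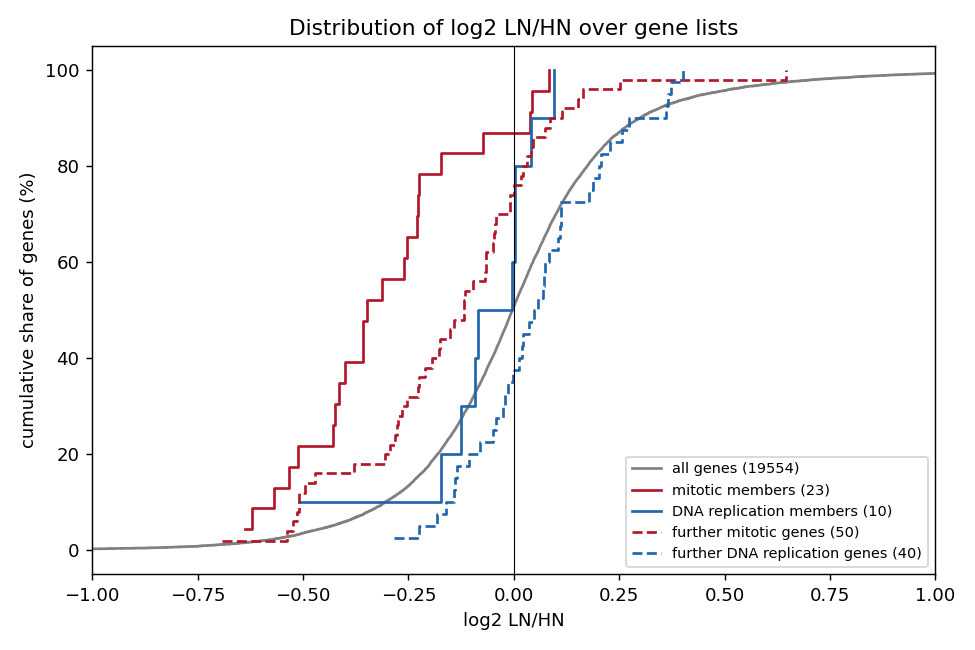
Cumulative share of genes by log2 LN/HN for the mitotic members (red, 23 genes), the replication members (blue, 10), the further mitotic genes (red dashed, 50), the further replication genes (blue dashed, 40) and all 19554 genes (grey). Both red curves lie left of the grey curve over most of their range, with medians of -0.35 and -0.12, whereas the blue dashed curve has its median at 0.05 (-0.01 with the 75th percentile subtracted).

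For the factors that control these genes, the counts stand against 9.11% of all genes called lower and 8.85% called higher. Among 18 transcription factors of the cell cycle, 9 had a value and none was called lower and 1 higher, against 1 lower and none higher with the 75th percentile subtracted. *FOXM1* had no matched probe. *MYBL2*, which encodes B-MYB, had -0.12 from 2 probes, *E2F1* had -0.19 from 3 probes between -0.43 and 0.18, and *E2F6* had -0.15. *LIN52*, a MuvB subunit, had 0.35 from 2 probes at 0.26 and 0.44. The 10 G1 cyclins and kinases, 2 of which are also in the list of further replication genes, all had a value within -0.13 and 0.19. These were *CCNH* (-0.13), *CCND3* (-0.10), *CDK6* (-0.09), *CDK7* (-0.04), *CDK2* (-0.01), *MNAT1* (-0.01), *CDK4* (0.0085), *CCND2* (0.12), *CCND1* (0.13) and *CCNE1* (0.19).

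Among 26 cell cycle inhibitors and genes of the retinoblastoma family, 21 had a value, 4 of which were called higher and 1 lower, against 8.85% and 9.11% of all genes, with a list median of 0.01 (between 0.00082 and 0.09 over the other settings). *CDKN1A*, which encodes the CDK inhibitor p21, had 8.05 (HN) and 8.71 (LN). Its log2 LN/HN was 0.66, with its 2 probes at 0.30 and 1.02. *SESN2*, a stress-induced gene, had 3.64 (HN) and 4.45 (LN) in its 1 probe, a difference of 0.81. *GADD45G*, a growth arrest gene, had probes at 0.43 and 0.51, and *RBL1*, which encodes p107, had 0.36 from 1 probe. *CDKN2D*, an inhibitor of CDK4 and CDK6, was lower (-0.35, 1 probe).

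The tissue label was checked with markers, which also show the cell types whose share could differ between the pools. Of 14 markers of muscle fibers, 10 had a value, 7 of which were lower, with a median of -0.09. Their values ranged from -0.50 for *MYH1*, an adult fast myosin, to 0.35 for *MYH8*, the perinatal myosin, and *ACTA1*, the skeletal muscle actin, had log2 signals of 17.57 (HN) and 17.53 (LN). Among markers of cell types that can divide, 4 of 5 markers of satellite cells and myoblasts with a value were lower (median -0.14, from -0.50 to 0.20), as were 5 of 6 endothelial markers (median -0.21) and 4 of 5 macrophage markers (median -0.29). The macrophage markers had a summed signal of 4295 (HN) against 3457 (LN), and the endothelial markers 2540 against 2115. All 6 markers of fibroblasts and fibro-adipogenic progenitors were higher (median 0.34, summed signal 20771 against 25396), also in each of the other settings. Of 6 neutrophil markers with a value, 5 were called higher, against 8.85% of all genes (median 1.15, or 0.60 in the normexp setting, and summed signal 306 against 715). One of the 5, *MPO*, was dim in the HN pool and could only be higher. With only the probes measured in both pools, 4 of 5 were called higher, against 8.12% of all genes, with a median of 1.05. The 7 erythroid markers with a value had a median of -0.03, and 5 of them were lower, but *TFRC*, the transferrin receptor, had 0.80 from 3 probes between 0.77 and 0.84. *SLC4A1* and *EPB42* were not above background in either pool, and the 4 lymphocyte markers with a value had a median of -0.04. *PAX7*, which marks satellite cells, had no matched probe. The part of these cell types in the values of the mitotic genes was not tested.

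The difference between the lists was smaller with the normexp background correction. This setting changed the background model, used the median signal within each spot and added an offset of 50 to the corrected values. The parts of these steps were not separated. For scale, the background-corrected intensities used in the other settings had a median across spots of 49.1 (HN) and 48.4 (LN). The median was then -0.12 for the mitotic genes and -0.02 for the replication genes, and none of the 33 genes was called lower, against 1.98% of all genes. In that setting 20 of the 23 mitotic genes were lower. Over the other 11 settings the median was between -0.36 and -0.31 for the mitotic genes and between -0.14 and -0.02 for the replication genes.

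**Figure D4:**
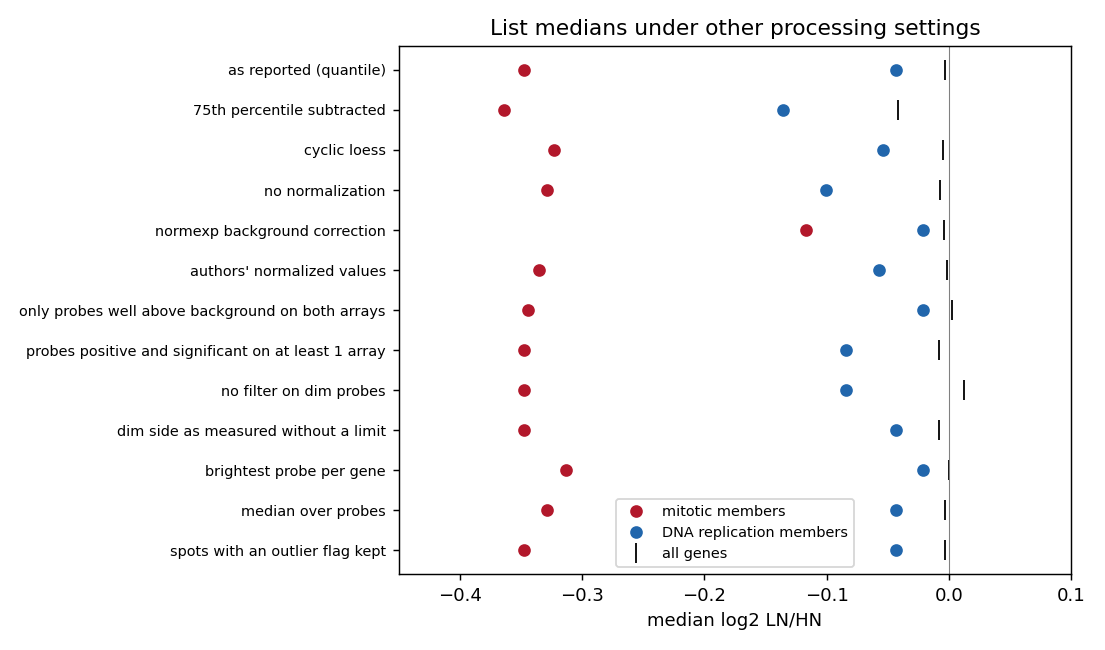
Median log2 LN/HN of the mitotic members (red), the replication members (blue) and all genes (black bars) with the reported processing and under 12 other settings. The red points lie left of the blue points in every setting, and the distance is smallest after the normexp background correction, at -0.12 against -0.02.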

How the data were processed

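Each pool held LT muscle RNA of 4 fetuses and was hybridized to 1 one-color Agilent Bovine (v2) array, with both arrays on 1 slide per the file headers. The authors deposited the spot intensities from Agilent Feature Extraction 11.0.1.1, background-corrected and not normalized between the arrays, with software flags (other values) and an error estimate for each spot. The authors also deposited log2 values after quantile normalization in GeneSpring GX, which were used as an alternative. That they are on the log2 scale was judged from their correlation with the log2 intensities (Pearson's r 0.9996 across 30027 probes of the HN array).

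Log2 intensities of the 43803 non-control spots were quantile-normalized in R 4.3.3 (limma 3.58.1). Spots with an outlier flag (13) were removed, spots of a probe were averaged, and 43652 probes remained, handled in Python 3.11.15 (numpy 2.4.6, pandas 2.3.3) and drawn in matplotlib 3.10.9. Probes had to be well above background on either array. Where a probe was dim on 1 array, the dim value was replaced by that array's weakest signal marked well above background (log2 2.27 on HN, 2.82 on LN) or its own value if higher, and gave no fold if the bright side was not above it. Gene values are means of log2 LN/HN over all such probes that gave a fold. "At least" marks a fold that includes such a limit. Symbols were assigned to accessions from the RefSeq genes of assembly ARS-UCD2.0 (26742 probes, 12603 symbols), which differs from the array design's build, so no coordinates are given. Sequences of the genes or probes were not used here.

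Genes were called at a difference of more than 0.32 on the log2 scale. All members were named, and of the further lists the 4 genes with the largest difference among those measured on both arrays, plus every gene of lists of 12 or fewer. *FOXM1*, *CDKN2D*, *TUBB4B*, *TTK*, *CENPK*, *CEP55* and the cell type markers named were added for their roles or after their values were seen. Some genes that this rule names are not reported here. The members and lists were chosen with earlier results of these data known. The steps were tested on simulated data with differences of 2-fold or more and probes measured on both arrays. Smaller differences and the limits for dim probes were not covered by this test. No spot was saturated, and the number of arrays limits the precision.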

Additional observations from a re-analysis of the deposited data

How the results depend on the processing

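The 12 alternatives covered the scaling, the background correction, the authors' normalized values, the filter and limit for dim probes, the summary over probes and the spots with an outlier flag. After the normexp background correction (on median spot signals, since the files hold no mean signal), the median log2 LN/HN was -0.10 for all members with a value (-0.23 as reported), -0.12 for the mitotic genes, and -0.096 for the difference between the mitotic and the replication median (-0.30 as reported), and 0 members were called lower instead of 13. With the 75th percentile subtracted, the median of the replication genes was -0.14 instead of -0.04, while that of all genes was -0.042. In the other alternatives, between 11 and 15 members were called lower, while the share of all genes called lower ranged from 7.99% to 15.9%, and 0 were called higher in any of the 12. All 13 genes called lower were lower in every alternative, as were 21 of the 26 genes reported as lower (18 mitotic and 3 replication genes). *CCNB2*, *KIF23*, *TPX2*, *CDCA8* and *CDC45* lost the call in at least 1 alternative beside normexp, and *CENPF* (in 9 of the 12), *KIF11* (in 4), *NDC80*, *PRC1* and *CDC6* (in 2 each) gained one. No paired analysis was possible because each group has 1 pooled array. At signals close to background the software error was larger, up to 0.39 for a probe of the members measured on both arrays.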

Other observations

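The authors' normalized log2 values cover 54 probes of the member genes. In 49 of these, their log2 LN/HN differed from the one given here by at most 0.087. The remaining 5 differed by more than 0.1 and up to 0.40, and none of these had a log2 signal above 4.30 on either array. Among them, the probe of *KIF11* gave -0.58 in the authors' values against -0.17, that of *CDCA8* gave -0.32 against -0.07, and the dim probe of *MCM7* gave -0.30 against 0.04. In these values 15 members were called lower, among them all 13 called in the report, *CENPF* and *KIF11*, against 8.64% of all genes in these values. The cause of the difference at dim probes was not tested.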
